A study of Mus musculus with 2 samples.

Results

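Chemokines are small secreted proteins that direct the movement of cells, and their receptors are G protein-coupled receptors of the cell surface. All genes of these families that a mouse expression array names were examined: every gene called Ccl, Cxcl, Ccr or Cxcr with a number, together with Cx3cl1, Cx3cr1, Xcl1, Xcr1, Ccrl1, Ccrl2, Pf4 and Ppbp. This rule found 59 of the 27337 genes with a value, read by 76 probes, of which 37 were ligand genes and 22 receptor genes. The cells were leukaemia-initiating cells, the fraction of a leukaemia that can start the disease again, from the bone marrow of female mice with acute myeloid leukaemia. Both groups carried the MLL-AF9 fusion with a YFP reporter and were sorted as positive for YFP, for the myeloid integrin Mac-1 and for the stem cell factor receptor c-Kit. One group was Jam3-null, lacking junctional adhesion molecule 3, and the other was wild type for Jam3 (WT). Each group had 1 one-colour array, labelled as coming from 3 mice. Whether their RNA was pooled in equal parts, the age of the mice, and how Jam3 was removed are not given in the sources used here. With 1 array per genotype, replicate error could not be measured, p-values are left out, and precision is limited by the number of arrays.

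Inflammatory chemokines such as the CCL2 and CXCL2 families are induced by NF-kB and interferon signalling and recruit monocytes and neutrophils. CXCL12 is made by marrow stroma and holds blood progenitors and leukaemia cells in the marrow through CXCR4, whereas CXCR2 draws mature neutrophils out of it. Atypical receptors bind chemoattractants without classical G protein signalling and shape their local concentration.

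Each array had 43379 non-control spots, and the share well above background was 55.0% for Jam3-null and 61.8% for WT. Neither array had Jam3 itself well above background, with processed signals of 28.1 and 5.09 on its brighter probe, so it did not check the labels. Of the sort markers, Kit differed by 0.09 in log2 and Itgam, which encodes the Mac-1 chain, was higher by 3.71 on the Jam3-null array. Signals below are processed intensities on a linear scale. A positive difference (in log2) means higher on the Jam3-null array, after each array was scaled to its 75th percentile, and ± beside a gene's main probe is the SD in log2 that the error model of the scanner software assigns, which covers measurement error only. A gene is called measured when both arrays had its brightest probe well above background.

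Of the 59 genes, 21 were measured, where 52.5% of all genes were. Another 8 passed background only on the WT array (8.99% of all genes) and 2 on the Jam3-null array only (1.86%), and 28 were below background on both (36.7%). Among the 21 measured genes, 7 were at least 2-fold higher on the Jam3-null array, against a background of 10.3% of the 14347 measured genes. The 7 were the ligand genes Ccl2, Ccl5, Cxcl10, Ccl6 and Cxcl2 and the receptor genes Cxcr2 and Ccrl2. Ccl9 and Cxcl12 were at least 2-fold lower, against a background of 8.64%. With cyclic loess scaling the split was 8 higher and 1 lower, beside 12.3% and 6.9% of all measured genes. The median difference of the 21 genes was 0.53, beside -0.07 over all measured genes. Because the samples are bulk RNA, fewer cells of a type and less RNA per cell cannot be told apart in any of these values.

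**Figure D1:**
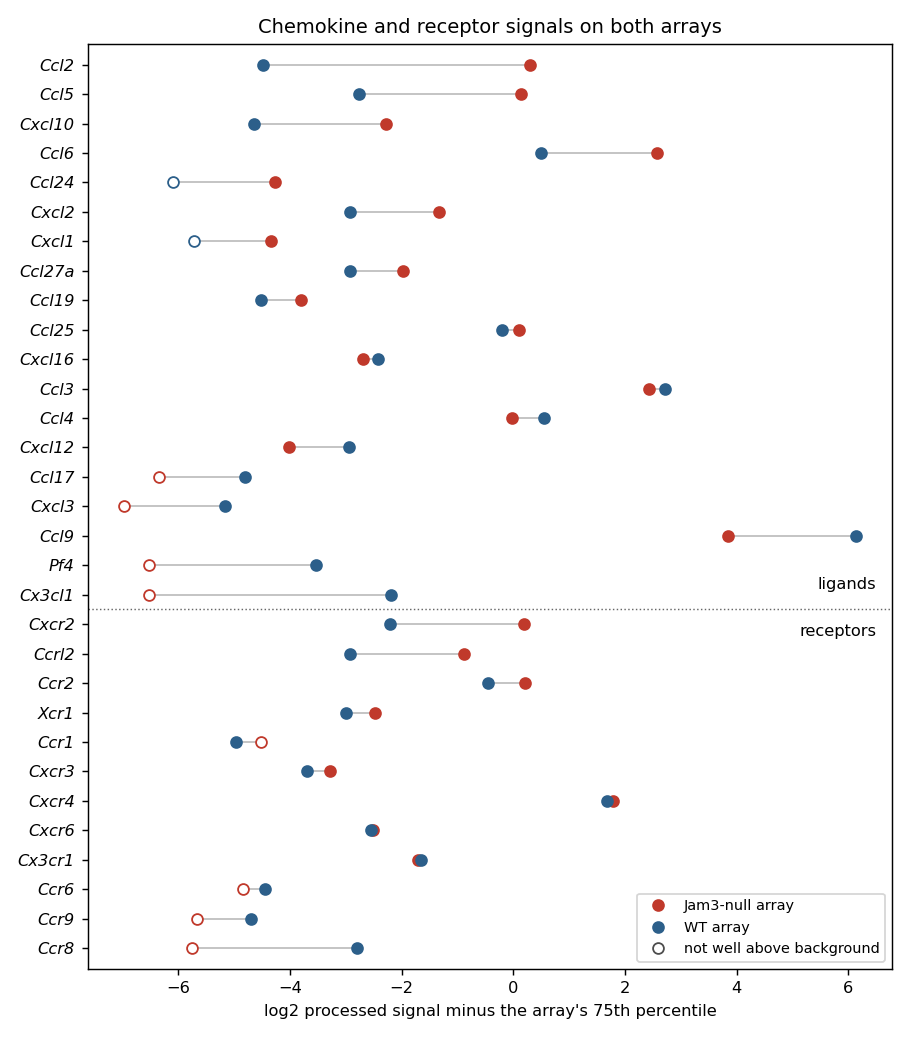
Scaled log2 signals of the 31 chemokine and receptor genes seen on at least 1 array, on the Jam3-null array (red) and the WT array (blue); open circles mark a signal not well above background, and each gene's points are joined by a line. Ccl2 and Ccl5 have the widest gaps towards the Jam3-null array among filled pairs, Ccl9 the widest towards WT, and the Cxcr4, Cxcr6 and Cx3cr1 points nearly coincide.

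Ligands of CCR2 recruit monocytes, and Ccl2 encodes the main one. Its probe (chromosome 11, 81850650 to 81850709, mm9, the build of all probe positions) was printed in 10 repeat spots per array. On the Jam3-null array these gave signals from 775 to 914 with a median of 809. The 9 WT spots that were kept gave 29.3 to 35.8 with a median of 31.7, and the spot flagged as an outlier gave 57.1. Every spot of the Jam3-null array lay above every spot of the WT array, the flagged one included. The mean signals were 825 ± 42.5 (SD of 10 spots) and 31.8 ± 1.90 (SD of 9 spots). Per spot, the log2 difference was 4.78 ± 0.08 (SD of 9 spots), with a range of 4.67 to 4.89. Repeat spots share the amplification, labelling and hybridization of their array, so neither the error of those steps nor the spread between mice is included. From the probe means Ccl2 was 27.7-fold higher on the Jam3-null array (4.79 ± 0.26), and 9.68-fold higher after normexp background correction. The faintest signal well above background on the WT array was 15.4. The other ligand genes of this axis, Ccl7, Ccl8 and Ccl12, lie beside Ccl2 on chromosome 11 and were below background on both arrays, as were the neighbouring Ccl11 and Ccl1. Ccl7 read 25.5 on the Jam3-null array and 3.45 on WT with its brighter probe, and 6.34 and 12.0 with the other, so its probes differed in direction and no fold is given.

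**Figure D2:**
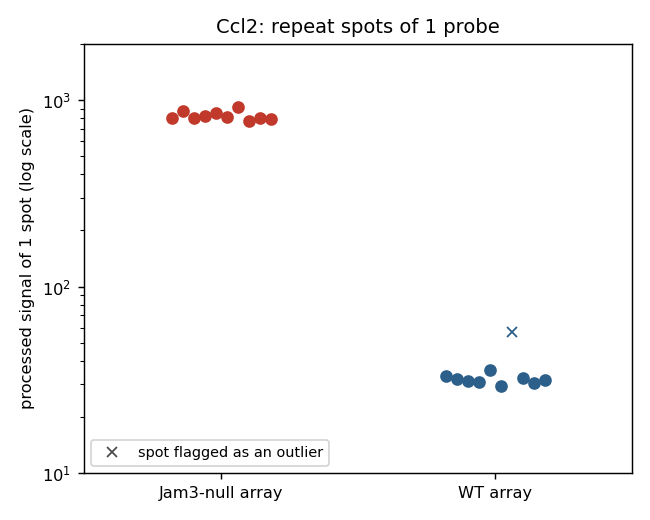
Processed signal of each repeat spot of the Ccl2 probe (log scale) on the Jam3-null and WT arrays; the cross is the WT spot flagged as an outlier. Jam3-null spots lie between 775 and 914, and the WT spots that were kept lie between 29.3 and 35.8.

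A second group of CC ligands acts on receptors of inflammatory cells, CCR1 and CCR3 among them, and its genes went both ways although 5 of them lie in 1 stretch of chromosome 11. Ccl5, a ligand made by activated lymphocytes and myeloid cells and stored in platelets, read 736 on the Jam3-null array and 105 on WT. It was 7.52-fold higher (2.91 ± 0.21), and its dimmer probe, with 219 and 20.9, gave a larger difference of 3.48. Both probes of Ccl5 were thus high on the same array. Ccl6, a chemokine of mouse myeloid cells, read 3956 and 1012 and was 4.18-fold higher (2.06 ± 0.20). Ccl9, also called MIP-1 gamma and likewise a product of myeloid cells, read 9654 and 50246 and was 4.87-fold lower (-2.28 ± 0.20). Ccl6 and Ccl9 are neighbours, with probes at 83401997 to 83402056 and 83388223 to 83388282, and their differences had opposite signs under each background correction and scaling tried. Ccl3 and Ccl4, which encode the MIP-1 alpha and beta chains, lie next to them and differed by less than 2-fold. Ccl3 read 3619 and 4714 (-0.29 ± 0.20), and Ccl4 read 654 and 1046 (-0.58 ± 0.20). Across this stretch, then, Ccl5 and Ccl6 were high on the Jam3-null array, Ccl9 was low there, and Ccl3 and Ccl4 lay between. Ccl24, an eosinophil attractant on chromosome 5, passed background only on the Jam3-null array with its brighter probe (34.6, against 10.4 on WT). Its other probe was below background on both arrays (14.3 and 6.74). By the brighter probe Ccl24 was at least 2.40-fold higher, or at least 1.49-fold after normexp correction. Such a bound compares the bright signal with a floor, the faintest signal that counted as well above background on the other array, or with the probe's own signal where that was brighter. The floors are 25.9 on the Jam3-null and 15.4 on the WT array, so bounds upward are larger: 97.0% of all genes seen on the Jam3-null array only had one of at least 2-fold, and 16.1% of those seen on the WT array only.

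The 250 bases before the annotated start of Ccl6 and Ccl9 are shown because these neighbours moved in opposite directions. Sequences are from RefSeq (GRCm38.p6), 5′ to 3′ on the strand of the gene. Capitals mark matches, on either strand, to TATAAA, the TATA box, to an NF-kB motif, and to the core of an interferon-stimulated response element. The latter motifs were searched with their 2 central bases left free, and their matches in Cxcl2 and Cxcl10, GGGAATTTCC and GAAAGTGAAA, show the other letters. TATAAA was found in 12.4% of 32851 such stretches before gene starts and in those of 15 of the 45 chemokine and receptor genes with a stretch in the table. Ccl9, on the minus strand at chr11:83578637-83578886, holds it at bases -92 to -87 before the start, overlapping a match on the other strand at -94 to -89, and a further match on the other strand lies at -224 to -219. Ccl6, on the minus strand at chr11:83593088-83593337, holds none of the 3 motifs, which says only that these letters are not in this stretch.
Ccl6: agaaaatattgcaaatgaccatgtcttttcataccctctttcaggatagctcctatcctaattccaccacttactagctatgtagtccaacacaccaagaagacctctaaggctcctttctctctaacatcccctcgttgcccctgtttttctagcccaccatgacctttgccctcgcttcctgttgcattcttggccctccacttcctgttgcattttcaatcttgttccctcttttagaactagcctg
Ccl9: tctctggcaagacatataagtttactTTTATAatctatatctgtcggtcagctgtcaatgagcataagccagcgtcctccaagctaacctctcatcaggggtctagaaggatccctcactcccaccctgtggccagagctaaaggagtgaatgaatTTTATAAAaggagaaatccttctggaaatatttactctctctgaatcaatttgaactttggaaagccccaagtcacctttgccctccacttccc

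CXC ligands that carry a glutamate-leucine-arginine motif attract neutrophils through CXCR2. Cxcl2 read 266 on the Jam3-null array and 94.5 on WT and was 3.02-fold higher (1.59 ± 0.21). Cxcl1 passed background only on the Jam3-null array (32.8, against 13.5), at least 2.27-fold higher, or at least 1.42-fold after normexp correction. Cxcl3 was seen on the WT array only (19.8, against 5.32), but its signal lay below the floor of the Jam3-null array and no bound is given. This set therefore had 1 gene measured and higher, 1 with a bound in the same direction and 1 without a fold, while Cxcl5, Cxcl15 and Ppbp were below background on both arrays.

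Cxcl10, an interferon-induced ligand of CXCR3 that attracts T cells, read 137 and 28.7 and was 5.11-fold higher on the Jam3-null array (2.35 ± 0.30). After normexp correction it was 2.21-fold higher. Cxcl9 and Cxcl11, the other interferon-induced ligands of this receptor, were below background on both arrays. Pf4, the platelet factor 4 of megakaryocytes, which also binds a form of CXCR3, was seen on the WT array only (62.0, against 7.29 on Jam3-null). Its Jam3-null signal was at least 2.24-fold lower, or at least 1.35-fold after normexp correction. Ppbp, its neighbour and another platelet chemokine, read 6.16 and 3.72, below background on both arrays.

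The stretches before the starts of Cxcl2 and Cxcl10 are shown because both genes were higher and both hold the NF-kB motif. This motif was found in 1.21% of the 32851 stretches and in those of 6 of the 45 chemokine and receptor genes: Cxcl1, Cxcl2, Cxcl3, Cxcl10, Ccl1 and Ccr3. Shares here are again per stretch and counts per gene. Cxcl2 holds it at bases -97 to -88, with an overlapping match on the other strand at -96 to -87 (plus strand, chr5:90903649-90903898). Cxcl10 holds it at -159 to -150, and the interferon response core at -213 to -204 (minus strand, chr5:92348890-92349139). The latter motif was found in 2.98% of all stretches and before 3 of the 45 genes, Cxcl10, Ccl19 and Cxcl14. Of the 6 genes with the NF-kB motif, Cxcl2 and Cxcl10 were measured and higher, Cxcl1 and Cxcl3 were each seen on 1 array, and Ccl1 and Ccr3 were below background on both. A match is a description of the letters and not of binding. Of the other higher genes, Ccl6, Cxcr2 and Ccrl2 hold no match to the NF-kB motif in their stretches, and Ccl2 and Ccl5 were not searched here.
Cxcl2: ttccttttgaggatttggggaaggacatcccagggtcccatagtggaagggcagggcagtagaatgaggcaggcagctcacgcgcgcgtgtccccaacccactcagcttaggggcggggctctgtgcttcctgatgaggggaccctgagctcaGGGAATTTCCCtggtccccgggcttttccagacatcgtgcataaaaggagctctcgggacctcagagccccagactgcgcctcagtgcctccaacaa
Cxcl10: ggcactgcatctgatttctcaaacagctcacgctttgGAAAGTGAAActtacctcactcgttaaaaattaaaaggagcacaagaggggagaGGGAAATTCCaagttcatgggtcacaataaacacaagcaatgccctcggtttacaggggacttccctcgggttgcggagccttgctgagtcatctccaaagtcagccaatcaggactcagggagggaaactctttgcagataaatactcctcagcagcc

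Among ligands of steady-state traffic, Cxcl12 was lower and the others measured lay within 2-fold. Cxcl12, the CXCR4 ligand of marrow stroma, read 41.2 on the Jam3-null array and 93.1 on WT and was 2.11-fold lower (-1.08 ± 0.28). It was 1.44-fold lower after normexp correction and at -0.91 with cyclic loess, so it did not reach 2-fold under either. This value comes from the probe designed on NM_001012477 (chromosome 6, 117131227 to 117131286), while the probe on NM_021704 was below background on both arrays with 6.40 and 3.94. Beside it, the list of endothelial and stromal markers had 3 of 10 genes measured. Of the 3, 2 were at least 2-fold lower, against a background of 8.64%. The summed signal was 578 on the Jam3-null and 2679 on the WT array, and 276 and 858 without Pdgfrb. Pdgfrb was at -2.50, Pecam1 at -1.69 and Col1a2 at -0.54, within 2-fold. Cdh5, Kdr, Tek, Lepr, Col1a1, Col3a1 and Kitl were not measured. The part of such cells in the Cxcl12 signal was not tested.

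Cxcl16, a membrane-bound ligand of CXCR6, read 103 and 134 (-0.28 ± 0.23). Ccl25, the thymic and gut ligand of CCR9, read 721 and 619 (0.31 ± 0.20), and its other probe gave 0.20. Neither differed by 2-fold. Ccl27a, a ligand of CCR10, read 169 and 93.6 (0.95 ± 0.21) and passed 2-fold only with cyclic loess scaling (1.04) among the corrections and scalings tried. Ccl19, which guides cells through CCR7, read 47.6 and 31.0 with 1 probe (0.72 ± 0.34) and 33.2 and 40.3 with the other (-0.19), so its direction depended on the probe. Ccl19 and Ccl27a have near-identical copies on mouse chromosome 4, and their signals are uncertain for that reason.

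Cx3cl1, or fractalkine, a membrane-bound ligand that can tether cells, was seen on the WT array only (156, against 7.23 on Jam3-null). Its Jam3-null signal was at least 5.66-fold lower, or at least 2.40-fold after normexp correction. A second Cx3cl1 probe was below background on both arrays. Ccl17, a CCR4 ligand, was seen on the WT array only (25.5, against 8.18) and has no bound.

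**Figure D3:**
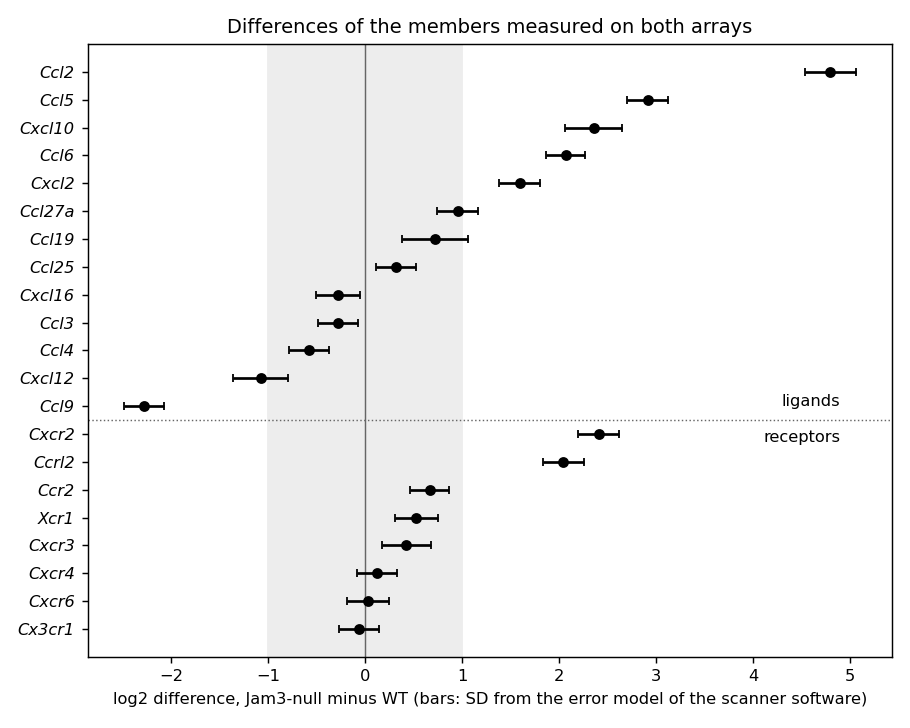
Log2 difference, Jam3-null minus WT, of the 21 genes measured on both arrays, ligands above and receptors below; bars are the SD from the error model of the scanner software, and the grey band marks less than 2-fold. Ccl2 (4.79), Ccl5 (2.91), Cxcr2 (2.40), Cxcl10 (2.35), Ccl6 (2.06), Ccrl2 (2.04) and Cxcl2 (1.59) lie to the right of the band, and Cxcl12 (-1.08) and Ccl9 (-2.28) to its left.

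Of the 22 receptor genes, 8 were measured. On the Jam3-null array 2 of these were higher by 2-fold or more and 0 lower by as much, beside 10.3% and 8.64% of all measured genes. With 8 genes these counts say little about receptors as a group. Cxcr2, which takes neutrophils towards CXCL1 and CXCL2, read 766 on the Jam3-null array and 155 on WT and was 5.29-fold higher (2.40 ± 0.21). Its second probe read 293 and 41.3 and gave 2.92. Both Cxcr2 probes were high on the Jam3-null array, whereas Cxcr1, the neighbouring receptor gene on chromosome 1, read 5.46 and 3.27, below background. Ccrl2, an atypical receptor that binds chemerin and is induced in activated myeloid cells, read 363 and 94.2 and was 4.12-fold higher (2.04 ± 0.21). Its second probe, with 319 and 109, gave 1.64, also past 2-fold. Cxcr2 and its ligand gene Cxcl2 were thus both higher on the same array.

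Cxcr4, the receptor for CXCL12, read 2310.4 on the Jam3-null array and 2273 on WT (0.12 ± 0.20). Its second probe read 1270.0 and 1643 (-0.28), so both probes lay within 2-fold and differed in sign. Ccr2, the monocyte receptor for CCL2, read 774 and 523 (0.66 ± 0.20), with 0.32 from its second probe. It was on the higher side without reaching 2-fold, beside the 27.7-fold difference of its ligand gene. Cx3cr1, the fractalkine receptor of monocytes, read 203 and 227 (-0.06 ± 0.21). Cxcr6, the CXCL16 receptor, read 117 and 123 (0.02 ± 0.22). These 2 differences were smaller than their error-model SD. Cxcr3, the CXCL10 receptor of T cells, read 68.9 and 55.0 (0.42 ± 0.26), and Xcr1, a receptor of cross-presenting dendritic cells, read 120.4 and 89.3 (0.53 ± 0.22).

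For 4 more receptor genes, only the WT array gave a signal above background. Ccr8, a receptor of regulatory T cells and of some myeloid cells, read 12.3 on the Jam3-null array and 102 on WT. It was at least 3.70-fold lower, or at least 1.91-fold after normexp correction. Ccr6, the CCL20 receptor, read 23.2 and 32.7, with a bound of only 1.18-fold lower. Ccr9, the CCL25 receptor, read 13.2 and 27.4, and Ccr1, the receptor for CCL3, CCL5, CCL6 and CCL9, read 29.2 and 22.9. No bound is given for Ccr9 or Ccr1, and Ccr1 had the brighter raw signal on the array where it was not well above background.

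Below background on both arrays were 28 genes, with signals from 5.11 to 25.5 on the Jam3-null array and from 3.08 to 14.2 on WT. On both arrays 14 of them held the surrogate value that the scanner software writes for a spot it cannot tell from background. They included the ligand genes Ccl1, Ccl7, Ccl8, Ccl11, Ccl12, Ccl20, Ccl21a, Ccl22, Ccl28, Cxcl5, Cxcl9, Cxcl11, Cxcl13, Cxcl14, Cxcl15, Cxcl17, Ppbp and Xcl1, and the receptor genes Ccr1l1, Ccr3, Ccr4, Ccr7, Ccr10, Cxcr1, Cxcr5, Cxcr7 (now Ackr3) and Ccrl1 (now Ackr4). Among them is Cxcr7, the second receptor for CXCL12, at 6.38 and 3.91. No fold is given for any of the 28.

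Downstream of the receptors, all 33 genes of a list of signal transducers were measured. Of these, 7 were higher by 2-fold or more and 1 lower (median 0.38, all genes -0.07), beside 10.3% and 8.64% of all measured genes. Among the largest differences were the Src-family kinase gene Fgr (5.65; 4.57 after normexp correction) and Pik3r5 (3.70; 3.01 after normexp correction), a regulatory subunit of the G protein-activated PI3-kinase. The G protein subunit gene Gng10 was the lower one (-1.36). Also higher by 2-fold or more were Plcb2 (1.82), Prkcb (1.69), Lyn (1.17) and Pak1 (1.13). The 25 genes within 2-fold included the G protein gene Gnai2 (0.73) and the kinase subunit Pik3cg (-0.13). The exchange factor Dock2 (0.16) and the GTPase Rac2 (0.67) were also among them. All genes of this list given here other than Fgr and Pik3r5 were named after their values were seen.

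Genes that desensitise and internalise the receptors included 12 measured of 14. Of these, 5 were higher by 2-fold or more and 0 lower by as much (median 0.69). Beside this list and those that follow, 10.3% of all measured genes were higher and 8.64% lower (median -0.07). After normexp correction 7.33% of all measured genes were higher by as much. The largest differences were the receptor kinase genes Grk3 (1.90) and Grk5 (1.79; 1.001 after normexp correction) and the arrestin gene Arrb1 (1.33). Of 9 measured proteases that can cleave chemokines, 5 were higher by 2-fold or more and 0 lay 2-fold lower (median 1.35), led by Mmp9 (4.66; 3.91 after normexp correction), the neutrophil elastase gene Elane (4.27) and Mmp8 (2.95). These 3 are also genes of neutrophil granules, as are Prtn3 (1.76) and Ctsg. Ctsg, the brightest gene of the list, read 282555 on the Jam3-null array and 324560 on WT (-0.10). Prtn3 and Ctsg were named after their values were seen. Among inducers of chemokine transcription, 7 of 13 measured genes were higher by 2-fold or more and 0 lower by as much (median 1.10), with Irf7 at 2.07 (1.28 after normexp correction), Nfkbiz at 1.40 and Relb at 1.34 (0.96 after normexp correction, which leaves 6 of 13). Il1b, named after its value was seen, was on the Jam3-null array only (264, against 12.7), with a bound of 4.19 in log2, or 2.14 after normexp correction. Of 5 atypical and scavenging receptors outside the naming rule, the chemerin receptor gene Cmklr1 was measured, at 1.02 (0.43 after normexp correction), and Ackr1 and Ackr2 were below background.

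Markers of the cells that make or carry these proteins were read beside them. As a yardstick for every marker list, the 2-fold cut-off took in 10.3% of the 14347 measured genes upward and 8.64% downward. The median of all measured genes was -0.07. After normexp correction the shares were 7.33% upward and 6.56% downward. All 15 neutrophil markers were measured and at least 2-fold higher on the Jam3-null array (median 4.66), with a summed signal of 1041901 and 178243. Cxcr2 and Cxcl2 were higher on the same array, as were Ccl2, Ccl5, Cxcl10, Ccl6 and Ccrl2. Monocyte and macrophage markers had 7 of 11 measured genes at least 2-fold higher and 0 lower by as much (median 1.57), with Vcam1 at 4.73 (4.11 after normexp correction) and Cd14 at 3.01. After normexp correction 6 of the 11 were, C1qc falling to 0.74 from 1.61. Their summed signal was 49923 on the Jam3-null and 65950 on the WT array, of which Ly6c1 made up 33674 and 59347, and without Ly6c1 it was 16249 and 6603. Mrc1 and Timd4 were below background on both. Megakaryocyte and platelet markers, counted without Pf4 and Ppbp, went both ways. Of 5 measured, 2 were at least 2-fold higher, Gp9 (2.08) and Vwf (1.96; 1.31 after normexp correction), and Itgb3 was lower (-1.68). Their summed signal was 1802 and 2842, and 1077 and 351 without Itgb3. Itga2b was seen on the WT array only, as Pf4 was (104, against 5.79), whereas Gp6 passed background only on the Jam3-null array (30.1, against 7.15), and Gp1ba and Gp5 were below background on both. T and NK cell markers, read beside Ccl5, had 4 of 10 measured, of which Nkg7 was at least 2-fold higher (1.84) and Cd4 (-0.25) and Cd3g (-0.17) were not. Cd3d passed background only on the Jam3-null array (71.2, against 13.3), while Cd8a, Ncr1 and Gzma were below background on both. Their summed signal was 15289 and 4680, of which Nkg7 made up 15160 and 4526. Dendritic cell markers, counted without Ccr9 and Xcr1, were at least 2-fold lower for 4 of 7 measured (3 after normexp correction), with Flt3 at -3.51. Cd74 of this list was at 0.52, and Siglech and Batf3 were below background on both arrays. The summed signal of the list was 4928 and 23087, and 2861 and 8493 without its brightest gene. Of 6 measured mast cell, basophil and eosinophil markers, 0 were at least 2-fold higher and 5 lower (median -1.75), 4 after normexp correction. Of 3 measured B cell markers 0 were higher and 1 lower by as much, and of 4 measured erythroid markers 1 and 0. Genes of these lists are not named here. Marker genes beyond the 3 largest differences of a list were named after their values were seen. The part of any of these cells in the chemokine and receptor signals was not tested.

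**Figure D4:**
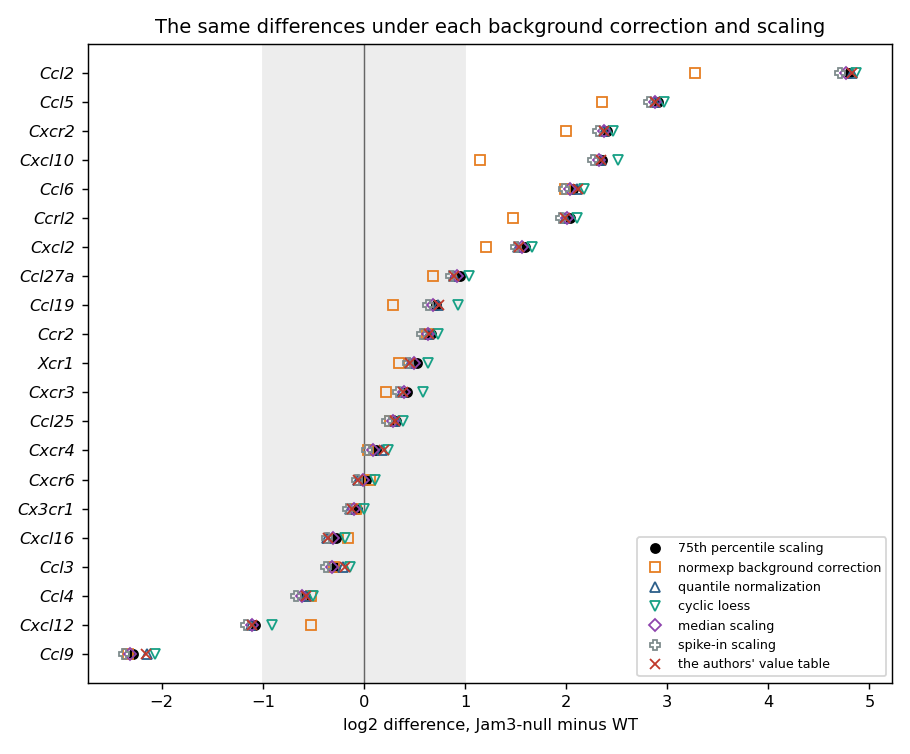
Log2 difference of the 21 measured genes under 75th percentile scaling and 6 other background corrections and scalings; the grey band marks less than 2-fold. The normexp values of genes dim on the WT array, such as Ccl2 (3.28) and Cxcl10 (1.15), lie nearest to 0. Cxcl12 enters the band with normexp (-0.53) and cyclic loess (-0.91). The 7 genes on the right stay beyond the band under each of the settings drawn.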

How the data were processed

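Total RNA of sorted leukaemia cells was amplified with a low-input one-colour kit and labelled with Cy3, per the labels' protocols. The deposited spot intensities come, per the file headers, from version 10.7.3.1 of the Agilent Feature Extraction software (10.7 per the submitters' processing notes), with background subtraction, spatial and multiplicative detrending and surrogate values for dim spots. The authors left them on a linear scale and not normalized between arrays. The authors' deposited value table holds log2 values, which follow the log2 processed signals (Pearson r over probes 0.999 on each array) and have a median of 5.66 in both columns, as after quantile normalization. Its making is not stated in the labels or headers.

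Flagged spots were left out (151 and 163 non-control spots), each array was scaled to its 75th percentile (668 and 714), and spots of a probe were averaged. A gene took its probe with the highest mean signal. Well above background means more than 50% of a probe's kept spots. Both arrays shared 1 slide and 1 scan. Probe positions are on mm9. Accessions were matched to RefSeq names of GRCm38.p6 (27668 probes by accession, 471 by synonym, 13035 by the name in the file). The median log2 difference over 8 spike-in probes was 0.09.

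Every chemokine or receptor gene seen on an array was named, and the 3 largest differences of each list, except that some genes are not reported here. The genes and lists were chosen with earlier results of these data known. Log2 differences stand in for tests, since there was 1 array per group. The gene-level step was tested on simulated data. R 4.3.3, limma 3.58.1, Python 3.11.15, numpy 2.4.6 and pandas 2.3.3 were used.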

Additional observations from a re-analysis of the deposited data

How the results depend on the processing

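The count of genes at least 2-fold higher was 7 under normexp background correction (offset 50), quantile normalization, median scaling, spike-in scaling, the authors' value table, the mean of the probes and the dimmest measured probe, and 8 with cyclic loess. The share of all genes so called lay between 7.33% (normexp) and 12.3% (cyclic loess) in these settings. The count was 17 of 59 genes with no filter on dim probes, where surrogate values enter (10.5% of all genes). With genes at their bound it was 9 of 27 (12.2%). With a stricter filter (mean signal above 955), which left 4 of the 21 genes, it was 1 (7.86%). The 2 genes at least 2-fold lower became 1 with normexp correction (6.56% of all genes in that setting) and 1 with cyclic loess (6.9%). The lower count was also 1 with the stricter filter (8.50%) and at a 3-fold threshold (2.94%). It rose to 5 with genes at their bound (10.1%) and to 8 with no filter (10.75%). The median difference of 0.53 moved to 0.29 with normexp correction and to 0.80 with no filter, and it turned to -0.083 on the 4 genes of the stricter filter. Normexp correction adds its offset to every signal and pulls dim genes towards 0 by construction. Cyclic loess moved the median of all measured genes by 0.13, from -0.07 to 0.06. At a 1.5-fold threshold 10 genes were higher, where 18.5% of all measured genes were, and at a 3-fold threshold 7 were (4.96%). Brightness over background limits the dim genes: with 1 array per genotype neither the spread between mice nor that between leukaemias was measured. No paired analysis was possible because each group has 1 array.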
